A study of Mus musculus with 10 samples.

Results

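The coagulation and complement genes of the liver are described here in portal tracts of 1-week-old mice. The list names 38 genes whose proteins clot blood, hold clotting back, dissolve clots or attack microbes through complement. Each gene was read from its probe set with exactly 1 gene symbol, and 34 of the 38 had one, of 22180 genes measured in all. Klkb1 and Masp2 lie on probe sets with several symbols, and Cpb2 and C3 have no probe set in the platform annotation used, so these 4 were not analysed here. By role the measured genes are 9 clotting and contact factors, 3 fibrinogen chains, 4 anticoagulants, 3 fibrinolysis genes, 6 genes of classical and lectin complement, Cfb of the alternative pathway, 5 genes of terminal complement and 3 genes of complement control.

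The tracts, which hold bile ducts, portal vein and artery branches and the stroma around them, were cut by laser from frozen liver, and 12 to 20 tracts were pooled in each sample. Biotin-labelled cDNA of 5 control and 5 Jag1+/-Rfng+/- samples was read on 10 arrays. The mutant genotype lacks 1 copy each of Jag1, a Notch ligand gene, and Rfng, the gene of a glycosyltransferase that modifies Notch receptors. The strain is given as C57Bl/6J for the controls and is not given for Jag1+/-Rfng+/-. The kind of mutant allele, the genotype of the controls beyond the word control, and whether each sample is a separate mouse are not given either, so the p-values rest on a sample-to-sample spread that may be technical. The comparison asks how gene programs of the tracts differ between the genotypes.

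Most proteins of this list are made by hepatocytes and secreted into plasma as inactive precursors. In the clotting cascade each protease activates the next until thrombin, encoded by F2, turns fibrinogen into fibrin. Antithrombin and the protein C system hold thrombin in check, and plasmin, made from plasminogen, dissolves fibrin. Complement starts by antibody (classical), by sugars (lectin) or by itself (alternative), meets at C3, and ends in a pore that C6, C8 and C9 help to build. In bulk samples of tissue, fewer cells of a type and less RNA per cell cannot be told apart.

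On arrays the number of samples limits the precision, since there is no read depth. The median log2 value per array ran from 3.22 to 3.30. Genes that are absent, such as Y-linked genes on the 4 arrays with high Xist (2 of each group), read 1.82 to 2.91, and 0 of the 34 members had any reading that low. The targeted genes read lower in Jag1+/-Rfng+/-, Rfng with a difference of -0.46 log2 and no overlap (exact permutation p = 0.00794, two-sided) and Jag1 with -1.33 and overlapping groups (exact permutation p = 0.0556). Where their probes lie relative to the mutations is not given, so these readings check the labels only weakly. Jag1+/-Rfng+/- replicate 5, whose sample name ends in excl, correlated with the other arrays at 0.956 to 0.963, against at least 0.969 among the other 9. It also carried erythroid markers at a list mean 2.87 log2 above the control mean, where the other 9 arrays lay between -0.58 and 0.44. It was kept, and results are given with and without it.

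Hepatocyte RNA was abundant on all arrays. Of 29 measured hepatocyte markers, a list that holds none of the 34 members, 0 lay within the range of absent genes on average, and the mean of the list per array ran from 9.40 to 9.91 in controls and from 9.49 to 9.73 in Jag1+/-Rfng+/-. Of these markers 11 read higher and 18 lower in Jag1+/-Rfng+/-, with 0 past an unadjusted p of 0.05 and a median difference of -0.03 log2. Among markers of the tract itself, those of bile duct and portal fibroblasts differed more, and those of endothelium did not. The endothelium list averaged 0.03 log2 (4 of 10 lower). The bile duct list averaged -0.63 log2 (9 of 11 lower) and the portal fibroblast list -0.74 (12 of 15 lower), while the macrophage and Kupffer cell list averaged 0.18 (9 of 10 higher). Without replicate 5 the bile duct, portal fibroblast and macrophage list means were -0.56, -0.59 and 0.36, and the endothelium mean was 0.09. In the bile duct list 7 lower and 2 higher markers had an unadjusted p under 0.05, where 3.79% and 2.98% of all genes do. Of its 11 markers 2 averaged within the range of absent genes. What part the shifts of these lists have in the values of clotting and complement genes was not tested beyond the fits with a list mean as covariate given below.

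Promoters of 4 members are printed first, because their groups did not overlap (F2) or their unadjusted p was under 0.05 and their window holds a hepatocyte factor motif named below (F11, C1ra and C4bp). C8g, which had the lowest p of the members, is not printed because its windows hold none of these motifs. They are 300-base windows from RefSeq, build GRCm38.p6, from 250 bases before the gene start to 50 after, written along the gene's own strand. Of the 34 members 26 have an entry in that table, with 27 windows, C8g having 2. Capitals mark the hepatocyte factor motifs named here: GTTAAT, a motif of HNF1, in F2, C1ra and C4bp, TTGCNNAA, a C/EBP site, in F11 and C1ra, and TGTTTAC, a FOXA site, in F11, each on either strand. F2 lies at chr2:91636408-91636707 (minus strand), F11 at chr8:45261982-45262281 (minus), C1ra at chr6:124512371-124512670 (plus) and C4bp at chr1:130661569-130661868 (minus).
F2: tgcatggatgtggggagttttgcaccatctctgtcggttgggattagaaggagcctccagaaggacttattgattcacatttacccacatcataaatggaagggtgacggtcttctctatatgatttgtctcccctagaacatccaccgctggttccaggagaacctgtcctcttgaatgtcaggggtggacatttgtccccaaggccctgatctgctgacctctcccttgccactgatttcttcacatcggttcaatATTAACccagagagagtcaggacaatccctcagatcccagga
F11: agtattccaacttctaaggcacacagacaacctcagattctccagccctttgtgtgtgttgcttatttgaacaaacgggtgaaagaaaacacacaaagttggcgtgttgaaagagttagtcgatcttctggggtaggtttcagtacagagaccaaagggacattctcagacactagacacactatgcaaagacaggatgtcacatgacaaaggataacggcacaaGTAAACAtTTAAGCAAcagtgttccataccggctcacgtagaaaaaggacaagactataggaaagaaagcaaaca
C1ra: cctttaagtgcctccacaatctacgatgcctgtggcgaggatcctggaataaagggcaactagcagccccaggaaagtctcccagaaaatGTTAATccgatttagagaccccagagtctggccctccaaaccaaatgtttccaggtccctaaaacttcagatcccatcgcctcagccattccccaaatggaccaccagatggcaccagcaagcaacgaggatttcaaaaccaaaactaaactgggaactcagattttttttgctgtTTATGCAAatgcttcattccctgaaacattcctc
C4bp: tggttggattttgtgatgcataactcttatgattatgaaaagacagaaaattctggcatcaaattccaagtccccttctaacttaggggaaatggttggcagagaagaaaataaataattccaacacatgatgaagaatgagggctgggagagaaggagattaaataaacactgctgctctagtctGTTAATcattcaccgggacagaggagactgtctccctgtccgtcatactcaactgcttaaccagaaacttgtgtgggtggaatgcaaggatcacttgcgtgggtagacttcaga

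The HNF1 motif was found in 9 of the 27 member windows (33.3%), against 7.10% of all 32851 windows in the table. The C/EBP site was found in 8 (29.6%, against 10.8%), and the STAT3 site TTCNNNGAA in 7 (25.9%, against 8.30%). CTGGGAA, an interleukin-6 response element, was found in 6 (22.2%, against 11.1%), and it overlapped the STAT3 site in F9 and Vtn. TATAAA, the TATA box, was found in 2 windows (7.41%, against 13.6%), TGTTTAC in 1 (3.70%, against 3.65%), and 0 held CAAAGTCCA, an HNF4 site (0.475% of all), or GTGGGAA, the site of the Notch cofactor RBPJ (6.38% of all). Both strands were searched. These matches describe letters in the windows and say nothing of binding. The windows of the fibrinogen genes Fga and Fgb hold the HNF1, C/EBP and STAT3 motifs. That of Fgg, the third chain, holds none of these and only CTGGGAA of the 8 motifs searched. Neither window of C8g holds any of the 8.

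Clotting and complement genes differed little between the genotypes. With Jag1+/-Rfng+/- compared with control, 27 of the 34 members read lower and 7 higher, where 51.5% of all genes read lower. The median difference was -0.10 log2, against -0.01 over all genes. No difference passed the limma test adjusted over all genes (0 of 34 under 0.05, where 0.00902% of all genes pass, lowest adjusted p = 0.673). At an unadjusted p under 0.05 there were 4 members, C8g, F11 and C1ra lower and C4bp higher, where 6.76% of all genes are as low. Without Jag1+/-Rfng+/- replicate 5 there were 20 lower and 14 higher, the median was -0.03, and 1 member (C4bp) had such a p, against 6.41% of all genes. Without control replicate 4 there were 23 lower and 11 higher, the median was -0.04, and 1 member had such a p, against 6.91%. With the mean of the hepatocyte list as covariate 3 members had such a p, against 7.16%, and with that of the portal fibroblast list 0, against 7.52%. The portal fibroblast list itself differed by -0.74 log2 between the genotypes, so that fit cannot tell its part from that of genotype. With all arrays and no covariate the differences of the members ranged from -0.54 (C8g) to 0.45 (C4bp).

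**Figure D1:**
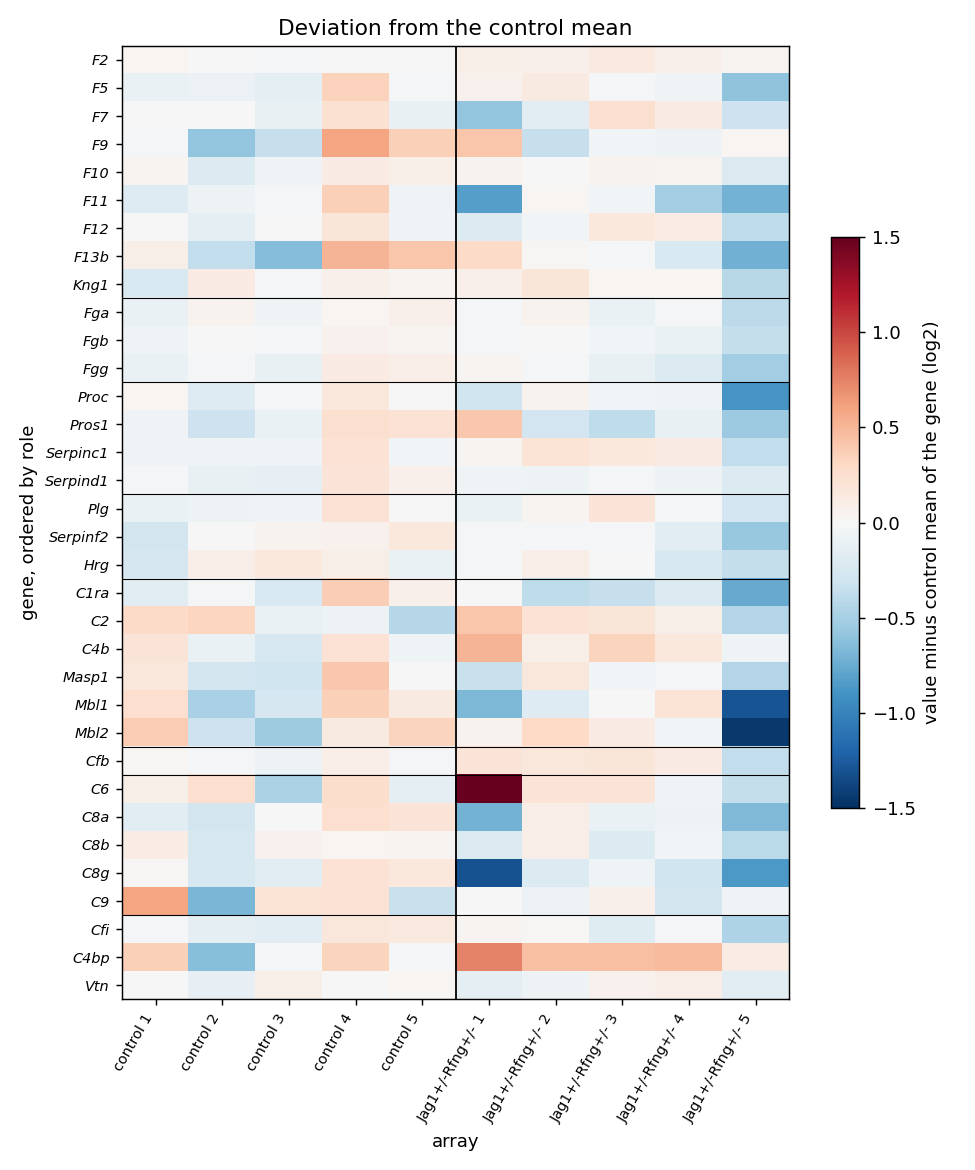
Each cell is the log2 value of a member on an array minus the control mean of that gene, with genes in rows by role (lines part the 8 roles) and arrays in columns. Jag1+/-Rfng+/- 5 is blue in most rows (31 of 34 below the control mean) and control 4 is red in most (33 of 34 above it).

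Single arrays stood apart more than the genotypes did in these medians. On Jag1+/-Rfng+/- replicate 5, 31 of 34 members read below their control mean, with a median deviation of -0.40 log2, and 24 had their lowest value of the 10 arrays there, where 17.2% of all genes do. The 3 exceptions were F2, F9 and C4bp. Of the 29 hepatocyte markers 14 were lowest there too, with a median deviation of -0.17. Control replicate 4 stood at the other end, with a median of 0.20, only 1 member (C2) below the control mean and 18 members at their highest, where 14.5% of all genes are. On the other 4 Jag1+/-Rfng+/- arrays the median deviation lay between -0.04 and 0.04, within the control range of -0.10 to 0.20.

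On Jag1+/-Rfng+/- replicate 1 the median deviation was near 0 (-0.0011). Of the 34 members 4, F7, F11, C8a and C8g, had their lowest value of all arrays there, where 10.1% of all genes do. Another 6, Pros1, C2, C4b, Cfb, C6 and C4bp, had their highest there, where 12.8% of all genes do. On this array the macrophage and Kupffer cell list averaged 0.90 above the control mean, the highest of the 10 arrays, and the portal fibroblast list -1.18. The part of other cell types in these readings was not tested.

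**Figure D2:**
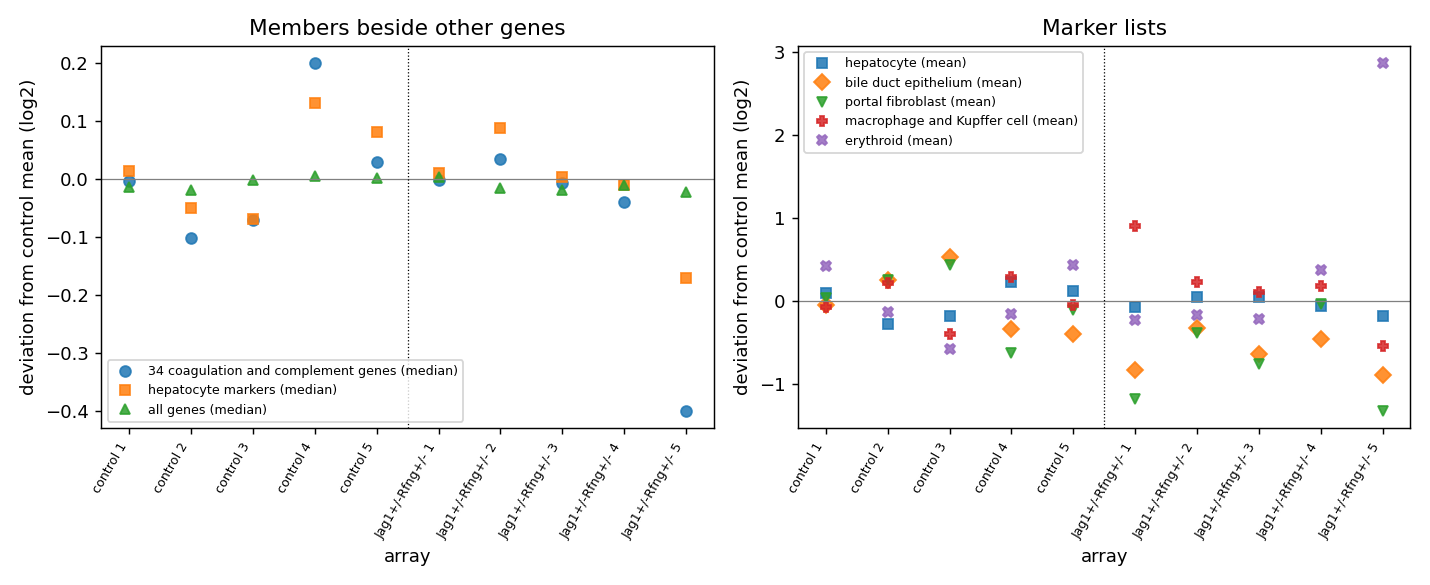
Left, the median deviation from the control mean per array (log2) of the 34 members, of hepatocyte markers and of all genes. Right, the mean deviation of 5 marker lists, with erythroid markers at 2.87 on Jag1+/-Rfng+/- 5, the array on which the members' median is -0.40.

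Among the 9 clotting and contact factors 8 read lower and 1 higher in Jag1+/-Rfng+/-, with a median difference of -0.07 log2, or 0.01 without replicate 5. F11, the plasma protease that activates factor IX, had the largest difference. It read 8.68, 8.80, 8.86, 9.24 and 8.82 on controls 1 to 5 and 8.05, 8.91, 8.84, 8.36 and 8.17 on Jag1+/-Rfng+/- replicates 1 to 5 (probe set 17509035, chromosome 8). Replicates 1, 4 and 5 lay below all controls, and replicates 2 and 3 lay within their range. The difference was -0.42 ± 0.18 log2 (SE), 1.33-fold lower (unadjusted p = 0.0386, limma adjusted p = 0.698, exact permutation p = 0.111). With the hepatocyte list as covariate it was -0.37, and it was -0.26 over the 3 control and 3 Jag1+/-Rfng+/- arrays whose sample names share a number of unstated meaning, replicate 5 left out.

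F2, the gene of prothrombin, was the one member whose groups did not overlap, where 1.38% of all genes do not. Controls read 11.16, 11.13, 11.10, 11.14 and 11.14, and Jag1+/-Rfng+/- read 11.22, 11.21, 11.28, 11.21 and 11.17 (probe set 17388234, chromosome 2). All 5 Jag1+/-Rfng+/- arrays lay above all controls, but by little. The difference was 0.09 ± 0.08 log2 (SE), 1.06-fold higher. Its exact permutation p of 0.00794 is the smallest that 5 against 5 can give, while limma, which widens the error of genes with a very small spread, gave an adjusted p of 0.868. F2 is 1 of 8 members with a control mean above 11 on a scale that ends at 12.47 in these data, and near the top of such a scale differences can be compressed.

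The other clotting genes overlapped between the groups. F13b, the carrier subunit of the factor that crosslinks fibrin, read 8.05, 7.59, 7.31, 8.47 and 8.37 in controls and 8.24, 7.97, 7.93, 7.73 and 7.23 in Jag1+/-Rfng+/-. It varied by more than 1 log2 within the controls alone (SD 0.50), so its difference of -0.14 is well inside the spread, and it turned to 0.01 without replicate 5. F9, the protease gene mutated in haemophilia B, also spread widely, from 7.71 to 8.89 in controls and from 7.95 to 8.72 in Jag1+/-Rfng+/-. F5, F7, F10, F12 and Kng1, the genes of 2 cofactors and 3 proteases of the cascade, differed by -0.14 (F7) to -0.02 (F10 and Kng1). F7, which starts clotting with tissue factor, had its 2 lowest readings in Jag1+/-Rfng+/- replicates 1 and 5, at 7.12 and 7.40, and its highest in replicate 3, at 7.96.

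All 3 fibrinogen chains read slightly lower in Jag1+/-Rfng+/-, with a median of -0.11, and none passed the test. Fgb, the beta chain, read 11.55, 11.59, 11.57, 11.67 and 11.64 in controls and 11.58, 11.60, 11.56, 11.50 and 11.25 in Jag1+/-Rfng+/-. Fgg, the gamma chain, read 11.52, 11.60, 11.50, 11.73 and 11.71 in controls and 11.65, 11.60, 11.50, 11.41 and 11.09 in Jag1+/-Rfng+/-. Replicates 4 and 5 lay below all controls for both chains, and replicate 3 lay just below them for Fgg. The differences were -0.10 for Fga, -0.11 for Fgb and -0.16 ± 0.12 (SE) for Fgg (limma adjusted p = 0.842 to 0.880). Without replicate 5 the median of the 3 was -0.04. The 3 genes lie in 1 cluster on chromosome 3 in RefSeq gene order, and on replicate 5 their median deviation was -0.39.

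Of the 4 anticoagulants 3 read lower and 1 higher, with a median of -0.14, or -0.07 without replicate 5. Proc, the gene of protein C, which cleaves activated factors V and VIII, read 9.21, 8.98, 9.16, 9.35 and 9.18 in controls. In Jag1+/-Rfng+/- it read 8.88, 9.22, 9.14, 9.12 and 8.29. Replicate 5 was far below the rest and replicate 1 slightly below the controls. The difference of -0.24 ± 0.17 (SE) became -0.09 without replicate 5.

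Pros1, the cofactor of protein C, behaved differently on replicate 1. It read 6.88, 6.62, 6.82, 7.17 and 7.13 in controls and 7.32, 6.64, 6.55, 6.81 and 6.38 in Jag1+/-Rfng+/-, so replicate 1 was the highest of all arrays and replicate 5 the lowest. The antithrombin gene Serpinc1 read 10.63 to 10.91 in controls and 10.32 to 10.90 in Jag1+/-Rfng+/-. On 4 of its 5 Jag1+/-Rfng+/- arrays it lay at 10.74 or above, with replicate 5 at 10.32. Serpind1, the gene of heparin cofactor II, read 10.92 to 11.24 in controls and 10.84 to 11.02 in Jag1+/-Rfng+/-.

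The 3 fibrinolysis genes all read slightly lower, with a median of -0.11, or -0.04 without replicate 5. Serpinf2, the gene of alpha-2-antiplasmin, which blocks plasmin, read 11.05, 11.33, 11.37, 11.39 and 11.48 in controls and 11.31, 11.30, 11.31, 11.15 and 10.76 in Jag1+/-Rfng+/-. Hrg, a histidine-rich plasma protein that binds plasminogen, read 9.93, 10.29, 10.34, 10.27 and 10.08 in controls. In Jag1+/-Rfng+/- it read 10.15, 10.28, 10.19, 9.94 and 9.82. For both genes 4 of the 5 Jag1+/-Rfng+/- arrays lay within the control range, and replicate 5 below it. The differences were -0.16 ± 0.13 and -0.11 ± 0.12 (SE), or -0.05 and -0.04 without replicate 5. Plg, the plasminogen gene, differed by -0.03, with 10.98 to 11.30 in controls and 10.79 to 11.27 in Jag1+/-Rfng+/-.

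**Figure D3:**
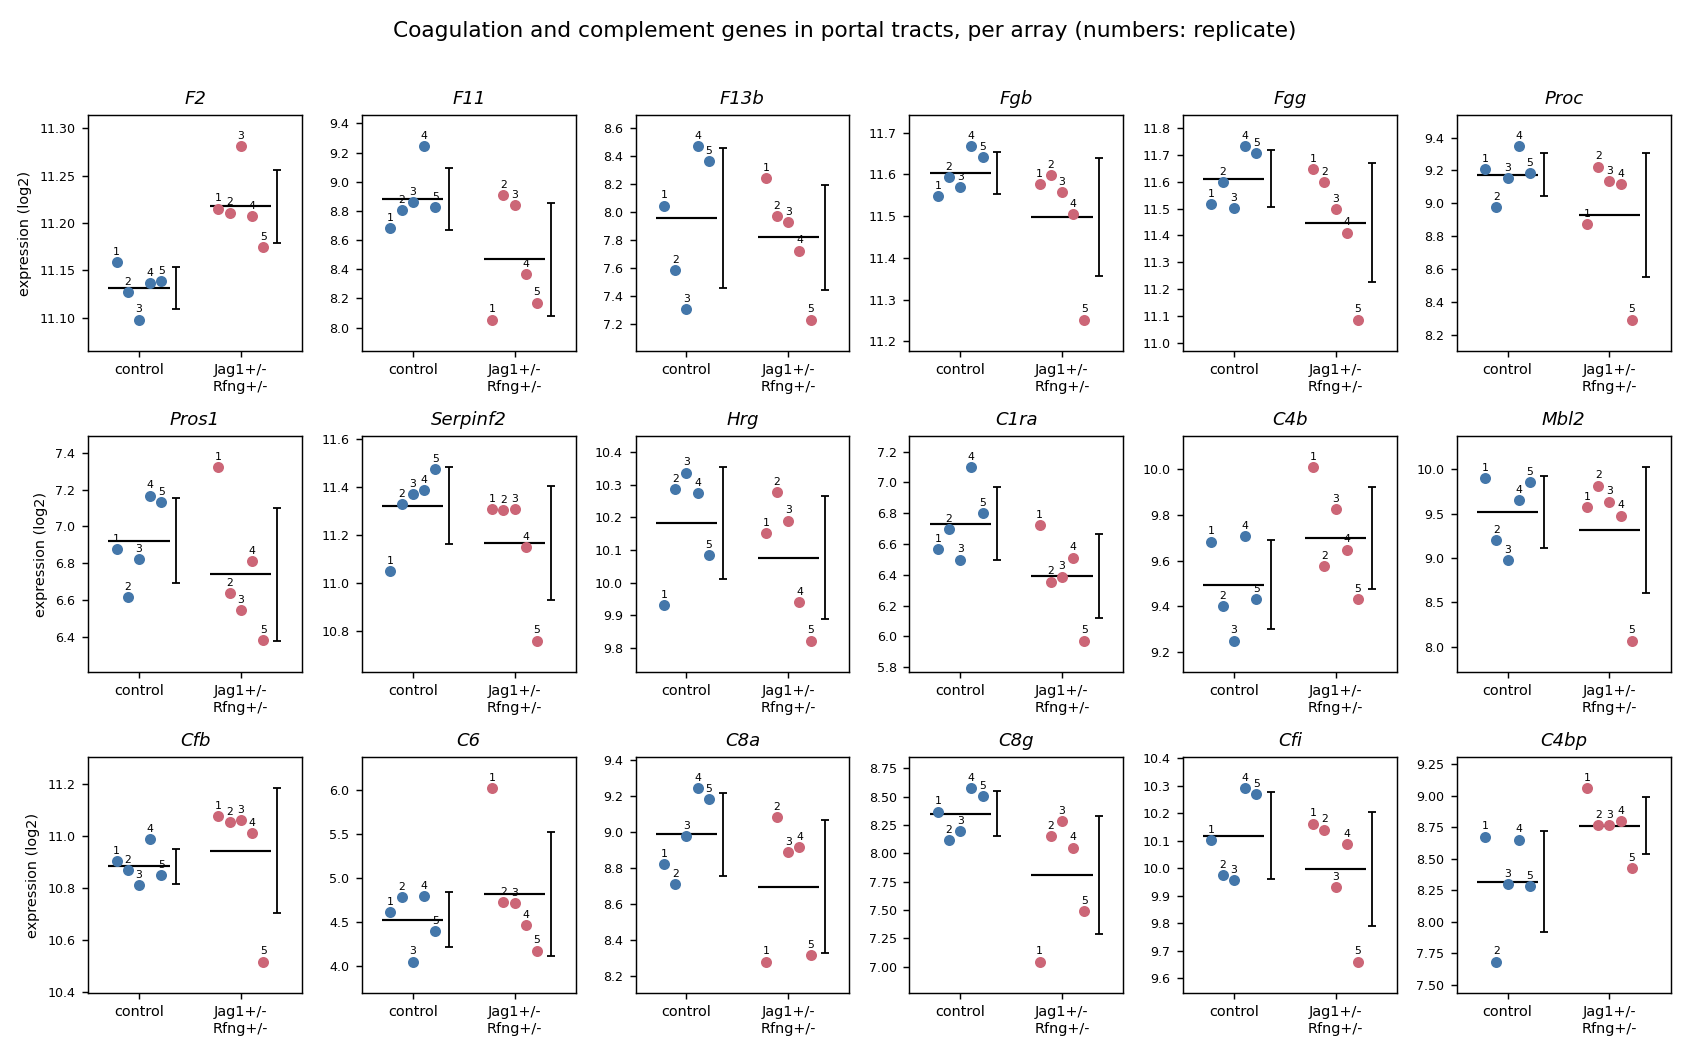
Log2 expression per array of the 18 members described in full, with the replicate number at each point. Horizontal lines are group means and error bars the SD (n = 5 each), each panel has its own axis that does not start at 0, and only F2 shows groups that do not overlap.

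In complement, the genes that start the classical and lectin pathways went both ways, 4 lower and 2 higher (median -0.17, or 0.03 without replicate 5). C1ra, a protease of the C1 complex, read 6.57, 6.70, 6.50, 7.10 and 6.80 in controls and 6.72, 6.36, 6.39, 6.51 and 5.97 in Jag1+/-Rfng+/- (probe set 17462872, chromosome 6). Replicates 2, 3 and 5 lay below all controls, and replicates 1 and 4 within their range. The difference was -0.34 ± 0.15 log2 (SE), 1.27-fold lower (unadjusted p = 0.0448, limma adjusted p = 0.722, exact permutation p = 0.0714), and -0.24 without replicate 5. Its paralog C1rb, measured on its own probe set, averaged 2.36 in controls and 2.54 in Jag1+/-Rfng+/-, within the range of absent genes.

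C4b, the complement component that C1 and the lectin proteases cleave, leaned the other way. It read 9.68, 9.40, 9.25, 9.71 and 9.43 in controls and 10.01, 9.58, 9.83, 9.65 and 9.43 in Jag1+/-Rfng+/-. Replicates 1 and 3 lay above all controls and the other 3 within their range. The difference was 0.20 ± 0.13 log2 (SE; limma adjusted p = 0.821). C2, the next protease of this pathway, differed by 0.09, or 0.22 without replicate 5. C4a, a near-identical copy of C4b, averaged 2.84 in controls and 3.07 in Jag1+/-Rfng+/- on its own probe set. Probes of C4b and C1ra may share signal with these copies, so their readings carry that uncertainty.

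The mannose-binding lectins, which recognize microbial sugars, varied widely. Mbl2 read 9.90, 9.20, 8.98, 9.65 and 9.85 in controls and 9.57, 9.82, 9.63, 9.48 and 8.07 in Jag1+/-Rfng+/-. Replicate 5 lay more than 1 log2 below every other Jag1+/-Rfng+/- array, and the other 4 within the control range. The difference of -0.20 turned to 0.11 without replicate 5. Mbl1 read 7.21 to 8.06 in controls and 6.41 to 7.91 in Jag1+/-Rfng+/-, again lowest on replicate 5, and differed by -0.39 ± 0.27 (SE), or -0.16 without that array. Masp1, a protease that travels with these lectins, differed by -0.13, or -0.06 without that array.

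Cfb, the protease of the alternative pathway, read higher on 4 of 5 Jag1+/-Rfng+/- arrays. Controls read 10.91, 10.87, 10.81, 10.99 and 10.85, and Jag1+/-Rfng+/- read 11.08, 11.05, 11.06, 11.01 and 10.52. Replicates 1 to 4 lay above all controls and replicate 5 below all of them. The difference was 0.06 ± 0.12 (SE; limma adjusted p = 0.947) over all arrays and 0.17 without replicate 5, the latter with a limma adjusted p of 0.819.

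Terminal complement, with a median of -0.15, or -0.09 without replicate 5, held the member with the largest difference, C8g. The 3 chains of C8 all read lower in Jag1+/-Rfng+/-, with -0.54 for C8g, -0.29 for C8a and -0.15 for C8b (-0.47, -0.19 and -0.09 without replicate 5), while C9 differed by -0.07 and C6 read higher. C8g, the lipocalin-like gamma chain, read 8.37, 8.11, 8.19, 8.57 and 8.51 in controls and 7.05, 8.15, 8.29, 8.05 and 7.49 in Jag1+/-Rfng+/- (probe set 17382613, chromosome 2). Replicates 1, 4 and 5 lay below all controls, 1 and 5 by far. The difference was -0.54 ± 0.22 log2 (SE), 1.46-fold lower (unadjusted p = 0.0280, limma adjusted p = 0.673, exact permutation p = 0.0476). Without replicate 1 it was -0.35, without replicate 5 -0.47, and over the 3 control and 3 Jag1+/-Rfng+/- arrays named alike it was -0.13.

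C8a followed the same arrays. It read 8.82, 8.71, 8.98, 9.24 and 9.18 in controls and 8.28, 9.08, 8.89, 8.92 and 8.32 in Jag1+/-Rfng+/-. Replicates 1 and 5 lay below all controls and the other 3 within their range, giving -0.29 ± 0.18 (SE; limma adjusted p = 0.797). C8b, its neighbour on chromosome 4, read 8.87 to 9.22 in controls and 8.70 to 9.20 in Jag1+/-Rfng+/-. In plasma the 3 chains form 1 protein, yet on replicate 1 the deviation from the control mean was -1.30 for C8g, -0.71 for C8a and -0.21 for C8b.

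C6, which joins the pore before C8, was read at a low level and set by 1 array. It read 4.62, 4.78, 4.05, 4.80 and 4.40 in controls and 6.02, 4.73, 4.72, 4.47 and 4.18 in Jag1+/-Rfng+/-. Only replicate 1 lay outside the control range. The difference was 0.29 ± 0.29 (SE), -0.0069 without that array and 0.45 without replicate 5. C9, the last component, spread from 6.38 to 7.66 in controls and from 6.79 to 7.15 in Jag1+/-Rfng+/-, the latter within the former.

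Among the genes of complement control C4bp, which binds C4b and promotes its cleavage, had the largest higher reading of the list. It read 8.67, 7.68, 8.30, 8.65 and 8.28 in controls and 9.06, 8.77, 8.77, 8.80 and 8.43 in Jag1+/-Rfng+/- (probe set 17226655, chromosome 1). Replicates 1 to 4 lay above all controls and replicate 5 within their range, and control 2 was low. The difference was 0.45 ± 0.18 log2 (SE), 1.36-fold higher (unadjusted p = 0.0331, limma adjusted p = 0.693, exact permutation p = 0.0476). It was 0.53 without replicate 5, 0.51 with the hepatocyte list as covariate (limma adjusted p = 0.410) and 0.29 without control 2.

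Cfi, the protease that cleaves C3b and C4b with such cofactors, showed no like difference. It read 10.10, 9.98, 9.96, 10.29 and 10.27 in controls and 10.16, 10.14, 9.93, 10.09 and 9.66 in Jag1+/-Rfng+/-. Only replicates 3 and 5 lay below all controls, and the difference was -0.12 ± 0.12 (SE), or -0.04 without replicate 5. Vtn, the gene of vitronectin, which blocks the pore and carries the plasminogen activator inhibitor, differed by -0.04, with a 95% interval of -0.24 to 0.16.

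**Figure D4:**
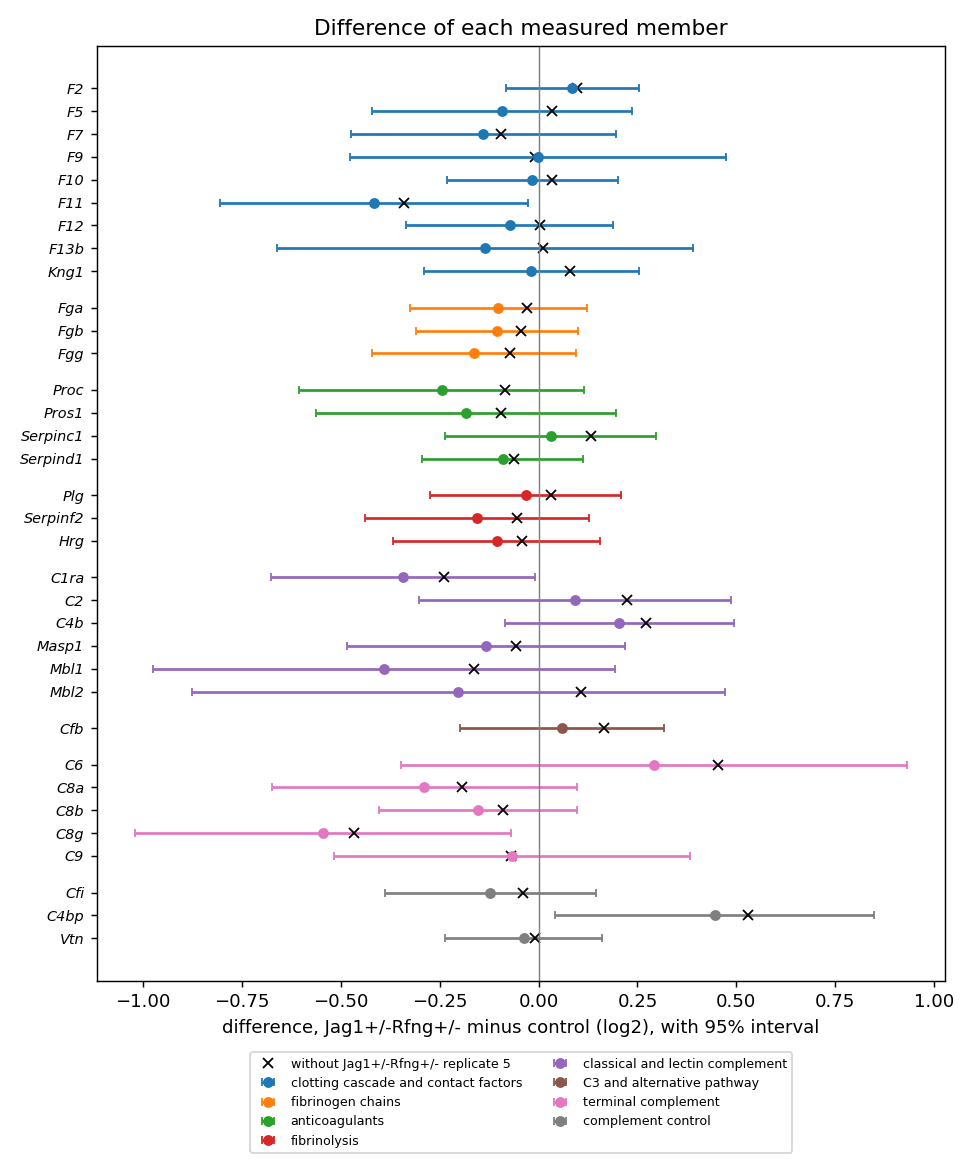
Difference of each of the 34 members, Jag1+/-Rfng+/- minus control (log2), with its 95% interval from the limma fit, coloured by role, and the plain difference of means without Jag1+/-Rfng+/- replicate 5 as a cross. Most intervals hold 0 (all but F11, C1ra, C8g and C4bp), and most crosses lie to the right of their points.

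Side by side, the 19 coagulation genes had 17 lower and 2 higher, a median of -0.10, and 1 with an unadjusted p under 0.05. The 15 complement genes had 10 lower and 5 higher, a median of -0.12, and 3 with such a p. Over all genes 51.5% read lower and 6.76% have such a p. Without replicate 5 the medians were -0.03 and -0.04, and C4bp alone of the 34 members had such a p. The 6 genes of vitamin K-dependent proteins (F2, F7, F9, F10, Proc and Pros1), whose products need the same carboxylation, had a median of -0.08. The difference between any of these groups was not tested. Neighbours in RefSeq gene order did not always read alike: F7 differed by -0.14 and the adjacent F10 by -0.02, C8a by -0.29 and C8b by -0.15, while C2 and Cfb, adjacent on chromosome 17, differed by 0.09 and 0.06.

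The spread among replicates was larger in Jag1+/-Rfng+/- for 27 of the 34 members, where 50.6% of all genes have the larger SD there. The median SD was 0.17 in controls and 0.23 in Jag1+/-Rfng+/-. Without replicate 5 the median SD of the remaining 4 was 0.14, and 12 members had the larger SD in Jag1+/-Rfng+/-, where 9365 of all 22180 genes do. Of the 5 terminal complement genes 4 were among these 12. Over all genes the median SD was 0.21 in each group, and 0.18 in Jag1+/-Rfng+/- without replicate 5. Of the 29 hepatocyte markers 19 had the larger SD in Jag1+/-Rfng+/-, or 10 without replicate 5.

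Among other genes of these systems, many of them made outside hepatocytes, those of complement mostly read higher and those of clotting did not. Of 14 other complement components 12 read higher, and of 16 complement control and receptor genes 13. Of the rest, 5 of 11 other clotting genes, 5 of 10 genes listed as anticoagulant (Gas6 and Anxa2, both lower, included) and 3 of 7 fibrinolysis genes did. C7, C1rb, Cr2 and Cd59b, counted as higher, averaged within the range of absent genes in both groups, and C4a did so in controls. Serpina5, counted as higher, and Serpinb2, counted as lower, also averaged within that range in both groups. Over all 58 measured genes 38 read higher and 20 lower (median 0.14 log2), with 5 higher and 2 lower at an unadjusted p under 0.05, where 2.98% of all genes are higher and 3.79% lower with such a p, and 0 past the adjusted threshold. Cd59a, a membrane protein that stops the complement pore on the cell's own surface, read 5.89, 6.37, 6.17, 6.58 and 6.51 in controls and 6.83, 6.85, 7.16, 6.61 and 6.92 in Jag1+/-Rfng+/-. Cd59a was the 1 gene of the 58 whose groups did not overlap, where 1.38% of all genes do not. All 5 Jag1+/-Rfng+/- arrays lay above all controls, 0.57 ± 0.15 log2 (SE) or 1.49-fold higher (exact permutation p = 0.00794, limma adjusted p = 0.413). It was 0.56 without replicate 5 and 0.50 over the 3 control and 3 Jag1+/-Rfng+/- arrays named alike.

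Genes that macrophages are known to express were among those that read higher. Fcna, a lectin of the lectin pathway, read 0.50 higher (limma adjusted p = 0.561), C1qa, a chain of C1q, 0.34 higher (0.609), and F13a1, the catalytic subunit of factor XIII, 0.63 higher (0.615). On these arrays 9 of 10 macrophage and Kupffer cell markers read higher as well, 1 of them with an unadjusted p under 0.05, where 2.98% of all genes are. Vsig4 is one of these markers and also one of the complement control and receptor genes counted above. The list means were 6.38 to 7.07 in controls and 6.23 to 7.68 in Jag1+/-Rfng+/-. On replicate 5, where that list lay at -0.54 from the control mean, Fcna, C1qa and F13a1 read 6.94, 7.12 and 4.72. Their control means were 6.56, 6.73 and 3.66. On replicate 1, where the list lay at 0.90, they read 7.32, 7.11 and 4.95. The part of macrophage content in these 3 genes was not tested. Clu, the gene of clusterin, which binds terminal complement, read 0.39 higher (0.628).

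Among the 20 that read lower, Gas6 and Lman1 were those with an unadjusted p under 0.05. Gas6, a vitamin K-dependent relative of protein S, read 8.14, 8.39, 8.84, 7.06 and 7.29 in controls and 6.34, 7.51, 6.94, 7.73 and 5.87 in Jag1+/-Rfng+/-, a difference of -1.07 ± 0.40 (SE; limma adjusted p = 0.632), or -0.81 without replicate 5. The groups overlapped, and with the portal fibroblast list as covariate, which itself differed between the genotypes, the difference was 0.06. Lman1, the cargo receptor that carries factors V and VIII out of the endoplasmic reticulum, differed by -0.34, or -0.23 without replicate 5.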

How the data were processed

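Portal tract RNA was measured in 5 control and 5 Jag1+/-Rfng+/- samples. The authors deposited log2 values of 33649 probe sets for each array. The submitters' processing notes list RMA and Partek 6.6 without saying what each did. RMA equalizes arrays and compresses differences of dim probe sets. Differences of very bright probe sets can be compressed on arrays too. No detection calls were at hand. Of the probe sets 23521 have 1 gene symbol, and 23328 of these matched RefSeq by Entrez identifier. The brightest set was kept per gene, which left 22180 genes; each of the 34 members has only 1 set. The table held 0 columns of no sample, and 0 array pairs were identical.

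The comparison used limma 3.58.1 under R 4.3.3 (linear model with eBayes, no covariate, two-sided, Benjamini-Hochberg over all genes, threshold 0.05) and, for single genes, the exact permutation test over 252 splits. On simulated data for this comparison with 22180 genes, limma recovered 74% of 2-fold and 99% of 4-fold changes. Members, lists and roles were chosen with earlier results of these data known. Genes described in full had an unadjusted p under 0.05, or were among the 2 lowest p or the largest SD of their role, which gave 18 members; the other 16 are given by range. Of 69 other pathway genes listed, 11 were not measured. Alternatives left out arrays or changed the block, weights, normalization, filter and covariates. The covariates were the means of the hepatocyte and portal fibroblast lists. Sample names hold 4 numbers of unstated meaning. The shared sample-name set is the 7 arrays with the number found in both groups (3 control, 4 Jag1+/-Rfng+/-).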

Additional observations from a re-analysis of the deposited data

Results flagged for a closer look

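In 12 of the 68 sets of 5 readings (34 members in each group) 1 array lay far from the other 4. Its gap to the next reading was over 0.71 of the range. The members share the same 10 arrays, so these sets are not independent, and the share over all genes was not computed. In 9 of the 12 the array set apart was Jag1+/-Rfng+/- replicate 5, below the others. There F5 read 8.82 (others 9.37 to 9.56), F10 9.50 (9.71 to 9.77), Kng1 9.14 (9.58 to 9.74), Fgb 11.25 (11.50 to 11.60) and Serpinc1 10.32 (10.74 to 10.90). Serpind1 read 10.84 (10.98 to 11.02), Serpinf2 10.76 (11.15 to 11.31), Mbl2 8.07 (9.48 to 9.82) and Cfb 10.52 (11.01 to 11.08). This array also has the highest erythroid list mean. The part of its cell content in these readings was not tested.

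In controls, replicate 4 was far above the others for F5 at 9.77 (others 9.29 to 9.40) and for Serpinc1 at 10.91 (10.63 to 10.66). Replicate 2 was far below them for C8b at 8.87 (9.13 to 9.22).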

How the results depend on the processing

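Of the 34 members 0 passed the adjusted threshold with all arrays or under any of the 21 alternatives, the lowest adjusted p being 0.410. The count with an unadjusted p under 0.05, 4 with all arrays, ranged from 0 to 4 when single arrays were left out (0 without control 5, 1 without control 2, control 4 or Jag1+/-Rfng+/- replicate 5, and 2 without control 3 or Jag1+/-Rfng+/- replicates 1, 2, 3 or 4). It was 1 in the shared sample-name set with or without replicate 5, 1 with array weights and 0 with the portal fibroblast covariate. The median difference of members, -0.10, ranged from -0.14 to -0.03 over single arrays left out and turned to 0.011 in the shared sample-name set without replicate 5. The count of all genes past the threshold, 2, ranged from 2 to 6 over single arrays left out (4 without control 5, 5 without control 4, 6 without Jag1+/-Rfng+/- replicate 2). It was 5 with array weights, 11 with trend and robust eBayes, 11 among genes above the median level, 8 with the hepatocyte covariate, 1 with the portal fibroblast covariate and 0 in the shared set without replicate 5 (limma, 1215 at an unadjusted p under 0.05). Other pathway genes with such a p, 7, became 3 with the portal fibroblast covariate and 5 to 9 over single arrays left out.

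Direction held under every alternative for 18 members, C8g, F11, C1ra, C4bp and F2 included, and turned at least once for 16. Of the genes described in full, F13b turned to 0.011 without replicate 5 (range over single arrays left out -0.30 to 0.011) and 0.088 in the shared set without it, and Mbl2 to 0.11 (range -0.34 to 0.11) and 0.36. C6 turned to -0.0069 without Jag1+/-Rfng+/- replicate 1 (range -0.0069 to 0.45), -0.022 in the shared set and -0.0015 with the portal fibroblast covariate, and Gas6 to 0.062 with that covariate. The cause was not tested. With the replicate number as a block 2 genes and 0 members passed the adjusted threshold, the median was -0.10 and 3 members had an unadjusted p under 0.05. Arrays with the same number correlated in their deviations at -0.23 to 0.06, so no strong pairing by number was seen. A small effect shared by a pair could be missed this way. With 5 arrays a group even the narrowest 95% interval of a member, that of F2, ran from -0.08 to 0.25 log2.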

Other observations

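Genes of hepatocyte transcription factors, which control the liver's plasma protein program, read higher in some cases and lower in others. Of 19 measured genes 9 read higher and 10 lower, with a median difference of -0.0092 log2 and 0 past the adjusted threshold (limma). At an unadjusted p under 0.05 there were 1 lower and 1 higher, where 3.79% of all genes are lower and 2.98% higher. Onecut1, a regulator of hepatocyte and bile duct development, read 7.06 to 7.72 in controls and 6.39 to 7.04 in Jag1+/-Rfng+/-. Its groups did not overlap, where 1.38% of all genes do not. It differed by -0.48 ± 0.16 log2 (SE; limma adjusted p = 0.572, exact permutation p = 0.00794). Cebpb, an activator of acute phase genes, read 4.48 to 5.01 in controls and 4.93 to 5.68 in Jag1+/-Rfng+/-, 0.41 ± 0.16 log2 higher (SE; limma adjusted p = 0.631), and was highest on replicate 1. Hnf4a, a main hepatocyte regulator, read 6.90 to 7.20 in controls and 7.02 to 7.31 in Jag1+/-Rfng+/-. Of 20 measured acute phase genes 12 read higher and 8 lower (median 0.08), with 1 higher and 0 lower at an unadjusted p under 0.05. That gene, Lrg1, read 7.75 to 8.26 in controls and 8.68 to 8.94 in Jag1+/-Rfng+/-, also with no overlap. Its difference was 0.84 ± 0.12 log2 (SE; limma adjusted p = 0.0620), or 0.86 without replicate 5. Haptoglobin, Hp, differed by 0.01. The acute phase list lay 0.40 above the control mean on Jag1+/-Rfng+/- replicate 1 and at -0.45 from it on replicate 5. The single genes named here were picked after their values were seen.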
